A study of Sus scrofa with 4 samples.

Results

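The transcript levels of 10 genes of the small RNA pathways were examined in mature porcine oocytes, namely PIWIL1, PIWIL2, PIWIL3, MAEL, DDX4, TDRKH, PLD6 and ASZ1 of the piRNA pathway and AGO2 and DICER1 of the miRNA and siRNA pathways. They were chosen by gene symbol, and all 10 were found among the 16050 genes with values in the deposited expression table. The oocytes came from ovaries of slaughtered pigs and were matured in vitro within their cumulus cells for 42 to 44 h, the time given to reach metaphase II. The methods call the sequenced oocytes mature and name no selection of them by polar body. The Control group was matured without added Cu and the Cu group with 25 μg/mL Cu, given as copper sulfate, and apart from the added Cu both groups had the same maturation medium, with follicular fluid, EGF, insulin and gonadotropins. The methods give this dose and culture time for the study in general. Sets of 3 oocytes went into a library by Smart-seq2, which copies polyadenylated transcripts after priming with oligo dT. The methods describe 3 sets per group, of which Control replicates 1 and 2 and Cu replicates 1 and 3 were analysed here. No source used here says whether these sets came from separate animals or cultures, so a p-value measures only the spread between sets of oocytes. The values are FPKM, fragment counts divided by transcript length and by the total of the library, and so allow levels to be compared between genes as far as the annotated lengths hold. In pools of a few oocytes, less RNA, fewer cells with the RNA and shorter poly(A) tails cannot be told apart.

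PIWI proteins are the germline branch of the Argonaute family. They bind piRNAs, small RNAs that guide the silencing of transposons, and many of their partners sit on the outer mitochondrial membrane or in the neighbouring germ granules, where long precursor transcripts are cut and trimmed into piRNAs. The other branch, the AGO proteins, binds miRNAs and siRNAs that DICER1 cuts from double-stranded precursors. Mice lack PIWIL3, which most other mammals carry and which is known as a PIWI protein of the oocyte.

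Between 7923 and 8162 genes reached 1 FPKM in Control 1, Control 2 and Cu 3, and 9364 did in Cu 1. A gene was tested if 2 or more libraries reached that level, which left 8541 genes. Over these, on the log2(FPKM + 1) scale, Control 1 and Control 2 had a Pearson's r of 0.976, Cu 3 had 0.959 and 0.965 with them, and Cu 1 had 0.918 to 0.923 with the rest. Genes are not independent replicates, and these values only describe that Cu 1 stood apart. Cu 1 also held the highest of the 4 values in 51.0% of the tested genes. The 9 tested genes are therefore also given without Cu 1. The 15 oocyte markers were all listed above 0, with summed FPKM of 30905 (Control 1), 30451 (Control 2), 24695 (Cu 1) and 23624 (Cu 3). BTG4 held most of each sum, and the other 14 summed to 4393 (Control 1), 5797 (Control 2), 8024 (Cu 1) and 5952 FPKM (Cu 3), so that the order of the groups was turned without it. Of 16 markers of cumulus and granulosa cells, 10 had values, 1 was at 0 in every library (AMH), and their sum was 2.12 (Control 1), 3.55 (Control 2), 15.5 (Cu 1) and 13.3 FPKM (Cu 3). Most of each sum was SERPINE2, and the other 9 summed to between 0.53 and 1.36 FPKM. Markers of blood and immune cells summed to between 0.09 and 2.09 FPKM and those of theca and stroma to between 0.56 and 2.11 FPKM. The part of these sums in the results below was not tested.

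The sample labels could not be checked by a targeted gene. ATP5PF, NDUFB3, NDUFAB1 and NDUFA13, subunits of ATP synthase and respiratory complex I, were higher in the libraries labelled Cu, with log2 fold changes from 2.25 (NDUFA13) to 4.0 (NDUFAB1) that did not pass an adjusted p of 0.05. The study describes the opposite direction for them, both in its RNA-seq and in quantitative RT-PCR. Whether the labels are exchanged was not tested, and each direction between Control and Cu given here holds only as far as the labels do.

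MAEL was by far the most abundant of the 10 transcripts, and PLD6 the least. MAEL (Maelstrom, a germ granule protein needed for transposon silencing in germ cells) had between 146 and 225 FPKM, and at least 96.3% of the genes with values were at or below it in each library. PIWIL1 followed with 20.9 to 42.9 FPKM, PIWIL3 with 14.8 to 22.5 FPKM and TDRKH with 10.6 to 20.7 FPKM. Lower levels were those of ASZ1 with 4.07 to 6.40 FPKM, PIWIL2 with 2.49 to 4.01 FPKM, DDX4 with 2.52 to 4.59 FPKM, AGO2 with 1.80 to 3.68 FPKM and DICER1 with 1.81 to 3.76 FPKM. Among neighbours in this order, the ranges over the 4 libraries did not overlap between MAEL and PIWIL1, TDRKH and ASZ1, ASZ1 and PIWIL2, or DICER1 and PLD6, although the gap between ASZ1 and PIWIL2 was from 4.07 to 4.01 FPKM. The ranges overlapped for PIWIL1 and PIWIL3, PIWIL3 and TDRKH, PIWIL2 and DDX4, DDX4 and AGO2, and AGO2 and DICER1. The order of these neighbours did not hold in every library. Within libraries, PIWIL1 was above PIWIL3 and DDX4 above AGO2 in 3 of 4. In the other overlapping pairs the first gene was above the second in 2 of 4. In the 9 genes other than PLD6, the highest library was between 1.52 times (PIWIL3) and 2.08 times (DICER1) the lowest.

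**Figure D1:**
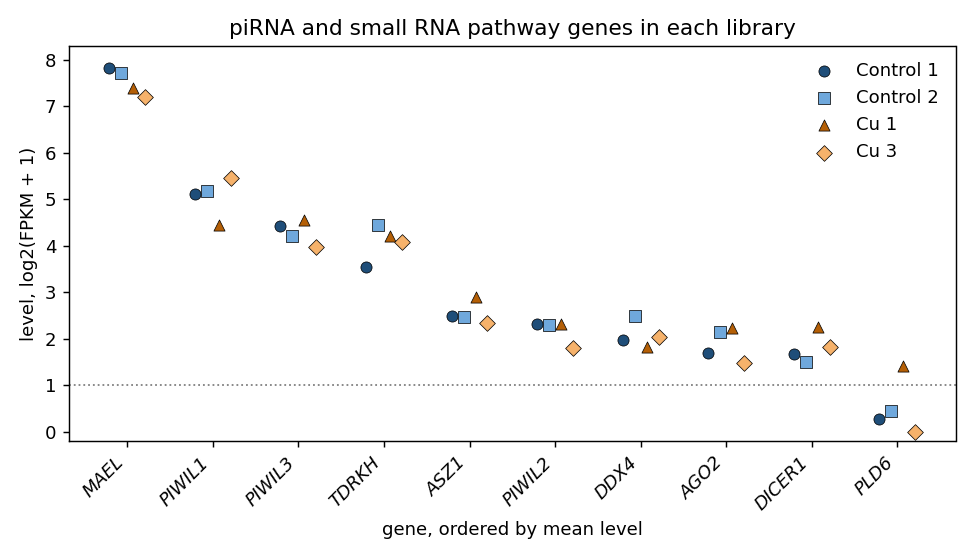
Levels of the 10 genes as log2(FPKM + 1) on the vertical axis, with the genes on the horizontal axis in the order of their mean level and 1 point for each of the 4 libraries. MAEL lies above 7 in every library, the dotted line marks 1 FPKM, and PLD6 lies above it in Cu 1 and below it in the other libraries.

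Of the PIWI proteins, PIWIL1 and PIWIL3 made up nearly all transcripts. PIWIL1 (gene identifier 100499508, chromosome 14, 24729346 to 24760056 in Sscrofa11.1) had 33.7 (Control 1), 35.3 (Control 2), 20.9 (Cu 1) and 42.9 FPKM (Cu 3). The Control libraries were close to each other, while the Cu libraries held both the lowest and the highest value, so the groups overlapped. PIWIL3 (identifier 100736714, chromosome 14, 42834819 to 42869486) had 20.5 (Control 1), 17.6 (Control 2), 22.5 (Cu 1) and 14.8 FPKM (Cu 3). Here too the Cu libraries lay on either side of the Control libraries, but in the opposite order to PIWIL1. PIWIL2 (identifier 100152834, chromosome 14, 6560402 to 6632524) had 3.96 (Control 1), 3.89 (Control 2), 4.01 (Cu 1) and 2.49 FPKM (Cu 3). It was nearly equal in 3 libraries and lower in Cu 3. No values are listed for PIWIL4, which acts in the nucleus of fetal male germ cells.

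The balance between PIWIL1 and PIWIL3 can be read within each library, where no scaling between libraries enters. PIWIL1 made up 58.0% and 62.2% of the summed PIWIL FPKM in Control 1 and 2, 44.1% in Cu 1 and 71.3% in Cu 3. PIWIL3 made up 35.2% (Control 1), 31.0% (Control 2), 47.4% (Cu 1) and 24.5% (Cu 3), and PIWIL2 between 4.14% and 8.47%. The ratio of PIWIL1 to PIWIL3 was thus 1.65 (Control 1), 2.01 (Control 2), 0.931 (Cu 1) and 2.91 (Cu 3). The Cu libraries were the extremes of this ratio, and the mean shares of PIWIL1 were 60.1% in Control and 57.7% in Cu. PIWIL3 to PIWIL2 stayed closer, with ratios from 4.51 to 5.92 over the 4 libraries. The summed PIWIL FPKM was 58.2 and 56.7 in Control 1 and 2, 47.4 in Cu 1 and 60.1 in Cu 3.

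The AGO proteins had far fewer transcripts. AGO2, the member that can cut a target RNA (identifier 100155245, chromosome 4, 2966794 to 3012388), had 2.21 (Control 1), 3.39 (Control 2), 3.68 (Cu 1) and 1.80 FPKM (Cu 3). AGO2 had the largest share of the summed AGO FPKM in every library, with 53.9% and 48.1% in Control 1 and 2 and 51.2% and 39.8% in Cu 1 and 3. AGO1 followed with 24.9% to 34.3% and AGO3 with 17.5% to 26.7%, and AGO4 had at most 1.99%. The share of AGO1 averaged 24.9% over Control and was 31.0% and 34.3% in Cu 1 and Cu 3, without overlap in these 4 libraries. The smallest p open to an exact permutation test of 2 against 2 libraries, two-sided, is 1 in 3. Group means listed by the authors, if taken over 3 libraries, leave values for a remaining library of each group. For Cu these were 0.96 FPKM for AGO1, 2.92 FPKM for AGO2, 1.06 FPKM for AGO3 and 0.06 FPKM for AGO4. AGO1 would then have a smaller share there than in the listed Control libraries, so the separation rests on the listed libraries. The summed PIWIL FPKM was 14.2 and 8.04 times the summed AGO FPKM in Control 1 and 2 and 6.59 and 13.3 times in Cu 1 and 3. In all 4 libraries PIWI transcripts were thus several times as abundant as AGO transcripts, while the size of this ratio varied as much within the groups as between them.

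**Figure D2:**
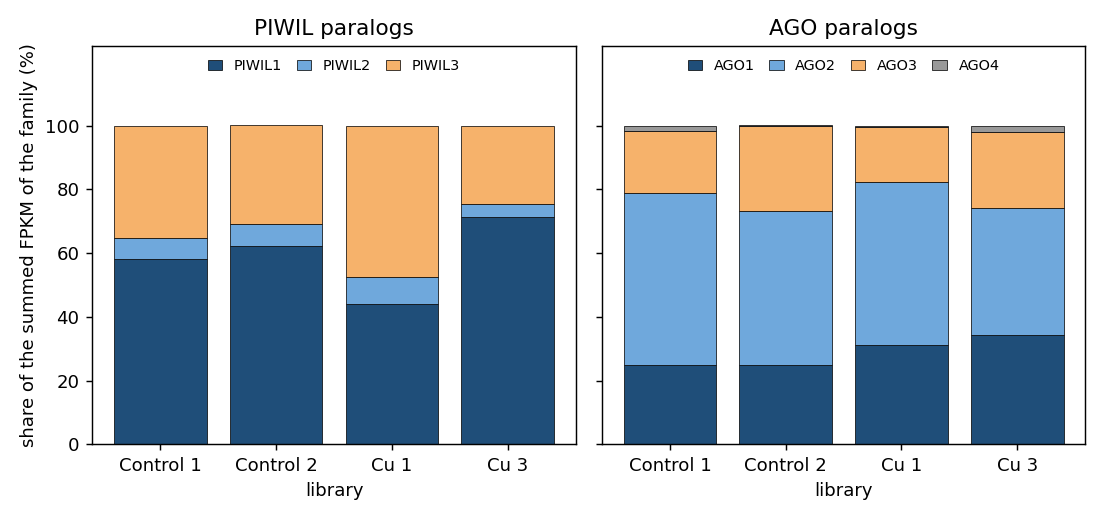
Share of each paralog in the summed FPKM of its family on the vertical axis, in percent, for the PIWIL family (left) and the AGO family (right), with 1 bar for each of the 4 libraries. PIWIL1 takes from 44.1% (Cu 1) to 71.3% (Cu 3) of its family and AGO2 from 39.8% (Cu 3) to 53.9% (Control 1).

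To see whether Cu exposure went with a change of these transcripts, the groups were compared with limma's moderated test over all 8541 tested genes, of which 9 of the 10 were part. PLD6 had 1 FPKM or more in 1 library and was not tested. After Benjamini-Hochberg adjustment over all tested genes, none of the 9 reached the limit used here (adjusted p of at most 0.05), and none had an unadjusted p that low. Over all tested genes 0 (0.0%) passed the first limit and 599 (7.01%) the second, and the smallest adjusted p was 0.631. Control and Cu did not overlap in 2 of the 9 genes (22.2%), compared with 38.8% of all tested genes. MAEL was the gene with lower and DICER1 the gene with higher Cu libraries, where 13.4% of all tested genes were lower and 25.4% higher. The authors' means bear on both. Multiplied by 3 they were whole in units of 0.01 FPKM, within a tolerance of 0.001 units, in 16049 of 16050 genes for Control and 16048 for Cu, as means over 3 libraries would be. If they are such means, they leave a value for the remaining library of each group, and with these values the groups of 0 of the 9 genes did not overlap, compared with 11.6% of all tested genes. The median log2 fold change, Cu minus Control, was -0.05 for the 9 genes and 0.16 for all tested genes, and the 9 values ranged from -0.48 to 0.46.

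MAEL (identifier 100048945, chromosome 4, 83990266 to 84040465) had 225 (Control 1), 211 (Control 2), 166 (Cu 1) and 146 FPKM (Cu 3). Both Cu libraries were below both Control libraries, by a log2 fold change of -0.48 (standard error 0.26, 95% interval -1.12 to 0.17, adjusted p = 0.73 in limma's test). The Control libraries differed by 0.09 and the Cu libraries by 0.18 on the same scale, less than the groups did. MAEL stayed lower in Cu without Cu 1, with -0.57 (adjusted p = 0.344 in limma's test), and under the other alternatives. The authors' means were 195 FPKM for Control and 179 FPKM for Cu, a log2 difference of -0.12. Over 3 libraries they would leave 149.8 FPKM for the remaining Control library and 225 FPKM for the remaining Cu library, which ends the separation of the groups.

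DICER1, the endonuclease that cuts miRNA and siRNA precursors (identifier 100505387, chromosome 7, 116361630 to 116436471), had 2.16 (Control 1), 1.81 (Control 2), 3.76 (Cu 1) and 2.55 FPKM (Cu 3). The groups did not overlap, and the log2 fold change was 0.46 (standard error 0.36, 95% interval -0.43 to 1.36, adjusted p = 0.791 in limma's test). The Cu libraries were 0.42 apart and the Control libraries 0.17. Without Cu 1 the log2 fold change was 0.25, and after quantile normalization it was 0.16 and the groups overlapped. The authors' means were 2.41 FPKM for Control and 2.82 FPKM for Cu, which over 3 libraries would leave 3.25 FPKM for Control and 2.15 FPKM for Cu, and the groups would then overlap.

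DDX4, the germ cell RNA helicase also called VASA (identifier 431672, chromosome 16, 34879701 to 34983701), had 2.93 (Control 1), 4.59 (Control 2), 2.52 (Cu 1) and 3.09 FPKM (Cu 3). Its level in Cu 3 lay between those of the Control libraries, and its log2 fold change was -0.30 (95% interval -1.24 to 0.63) and -0.20 without Cu 1. MAEL had 46.0 to 76.7 times the FPKM of DDX4. DDX4 is a marker of germ cells as well as a piRNA factor. The 15 oocyte markers spanned a wide range around it. NLRP5 (1.88 to 8.70 FPKM) and KIT (3.14 to 7.90 FPKM) were near the level of DDX4. Others were far above it, among them OOEP (1006 to 3075 FPKM) and BTG4 (16671 to 26512 FPKM).

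The factors that hold or cut piRNA precursors at the mitochondrion had unlike levels. TDRKH, a Tudor and KH domain protein that brings PIWI proteins to the outer membrane (identifier 100622748, chromosome 4, 97415891 to 97438262), had 10.6 (Control 1), 20.7 (Control 2), 17.5 (Cu 1) and 15.8 FPKM (Cu 3). The Control libraries were the lowest and the highest, 0.90 apart on the log2 scale, and both Cu libraries fell between them. ASZ1, an ankyrin repeat scaffold of the same site (identifier 100516477, chromosome 18, 28859140 to 28910927), had 4.62 (Control 1), 4.52 (Control 2), 6.40 (Cu 1) and 4.07 FPKM (Cu 3). Here the Control libraries lay close together between the Cu libraries. TDRKH had between 2.29 and 4.57 times the FPKM of ASZ1.

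PLD6, the mitochondrial phospholipase family protein that cuts piRNA precursors (identifier 110256141, chromosome 12, 61057896 to 61060681), had 0.21 and 0.36 FPKM in Control 1 and 2 and 1.65 FPKM in Cu 1, and was listed at 0 in Cu 3. Its level was thus under 1 FPKM in 3 of 4 libraries, and the Cu libraries held the lowest and the highest value. FPKM do not keep the number of reads, so whether a value of 0 means that no read was seen cannot be read from the table.

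The log2 fold changes of the remaining tested genes were -0.19 for PIWIL1, -0.24 for PIWIL2, -0.05 for PIWIL3, 0.15 for TDRKH, 0.14 for ASZ1 and -0.05 for AGO2. Their standard errors were 0.36 to 0.42 and their adjusted p were 0.903 to 0.983 in limma's test. The 95% intervals reached from -1.22 (PIWIL1) to 1.18 (TDRKH), and each of the 6 intervals held changes of up to 0.69 on the log2 scale in both directions. In these 6 genes the groups overlapped. Without Cu 1 they were 0.31 for PIWIL1, -0.50 for PIWIL2, -0.34 for PIWIL3, 0.09 for TDRKH, -0.14 for ASZ1 and -0.42 for AGO2. The direction changed for PIWIL1 and ASZ1 without Cu 1, for TDRKH without Control 1 (-0.30), for AGO2 without Cu 3 (0.32) or Control 2 (0.17) and by the authors' means (0.19), for PIWIL3 without Cu 3 (0.23) or Control 1 (0.05) and for PIWIL2 without Cu 3 (0.025). PIWIL1 was -0.70 without Cu 3, with a single Cu library left in the group. The Cu libraries differed from each other more than the Control libraries did in 7 of the 9 tested genes, with a median difference of 0.52 against 0.17 on the log2 scale. Over all tested genes these medians were 0.56 and 0.27.

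**Figure D3:**
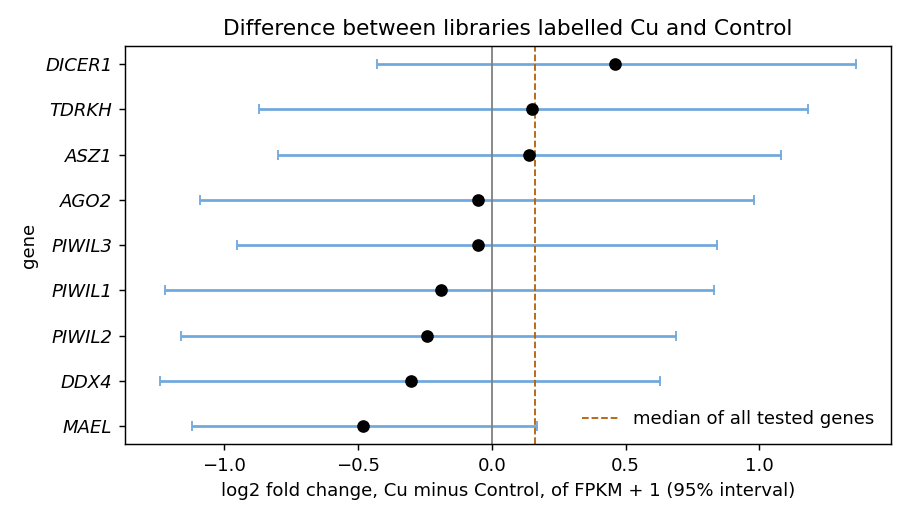
Log2 fold change of FPKM + 1 on the horizontal axis, Cu minus Control, for the 9 tested genes on the vertical axis, with 95% intervals from limma's test as bars. Every interval includes 0, from -1.12 to 0.17 for MAEL at one end to -0.43 to 1.36 for DICER1 at the other, and the dashed line marks the median of all tested genes at 0.16.

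**Figure D4:**
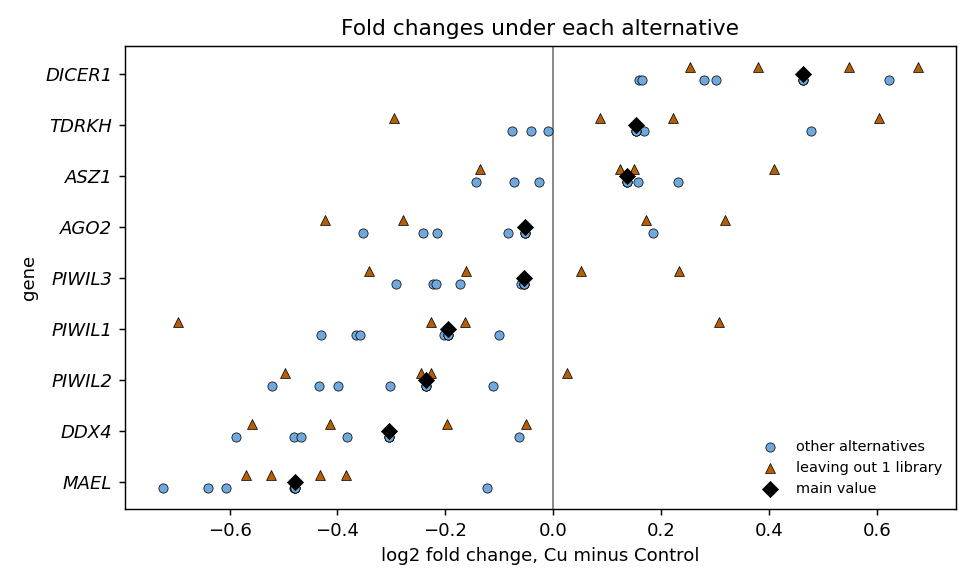
Log2 fold change, Cu minus Control, on the horizontal axis for the 9 tested genes on the vertical axis, as the main value, with 1 library left out and under the other alternatives. The points of MAEL and DDX4 stay below 0 and those of DICER1 above 0, while the other 6 genes have points on both sides.

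Both groups were also compared for the other genes of the piRNA pathway, a list of 29 genes, of which 27 had values and 21 were tested. None had an adjusted p of 0.05 or less, 0 were higher and 1 was lower at an unadjusted p of 0.05 or less, and in 4 of the 21 (19.0%) the groups did not overlap, 2 in each direction. Over all tested genes this share was 38.8%, with 25.4% higher and 13.4% lower. With the values that the authors' means leave over 3 libraries, 1 gene was higher (4.76%) and 0 were lower without overlap. Of all tested genes, 7.68% were then higher and 3.97% lower. The median log2 fold change was 0.08. The lower gene was DDX39A, a DEAD-box helicase of mRNA export, with 73.3 (Control 1), 91.0 (Control 2), 51.4 (Cu 1) and 36.0 FPKM (Cu 3). Cu minus Control came to -0.91 on the log2 scale (standard error 0.33, unadjusted p = 0.0336, adjusted p = 0.656 in limma's test), -1.16 without Cu 1, and -0.53 by the authors' means, which over 3 libraries would leave 49.4 FPKM for Control and 59.8 FPKM for Cu, so that the groups would overlap. Under the same test, 1.43% of all tested genes were lower and 5.58% higher at an unadjusted p of 0.05 or less.

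The most abundant transcript of this list was HENMT1, the methyltransferase that adds a methyl group to the 3′ end of piRNAs, with 1178 (Control 1), 758 (Control 2), 1008 (Cu 1) and 814 FPKM (Cu 3). It was several times as abundant as MAEL, and its groups overlapped, with a log2 fold change of -0.06. FKBP6, a co-chaperone of PIWI proteins singled out after its values were seen, had 199 (Control 1), 249 (Control 2), 162 (Cu 1) and 179 FPKM (Cu 3). Some Tudor proteins bind methylated arginines of PIWI proteins. Among the 12 Tudor proteins listed, RNF17 was the most abundant with 48.0 to 60.2 FPKM and a log2 fold change of -0.02. TDRD1, also chosen after its values were seen, was at 20.8 to 24.4 FPKM, next to PIWIL3. PRMT5, the enzyme that methylates these arginines, had 14.7 (Control 1), 7.58 (Control 2), 25.9 (Cu 1) and 6.13 FPKM (Cu 3), so that the Cu libraries were again the extremes.

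Several factors known from piRNA biogenesis or piRNA-guided DNA methylation in the testis were near 0. These were chosen after their values were seen. MOV10L1, the helicase that binds piRNA precursors, had 0.06 to 0.16 FPKM. TEX15 and SPOCD1, partners of PIWIL4 in the nucleus, had at most 0.08 and 0.27 FPKM, and TDRD9 had at most 0.33 FPKM. In total 5 of the 27 genes with values were under 1 FPKM in every library and 8 were at 10 FPKM or more in every library.

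Of 28 other genes of the miRNA and siRNA pathways, all had values and 21 were tested. None had an adjusted p of 0.05 or less, 1 was higher and 0 were lower at an unadjusted p of 0.05 or less, and in 5 of the 21 (23.8%) the groups did not overlap, with 3 higher and 2 lower, compared with 38.8%, 25.4% and 13.4% of all tested genes. At an unadjusted p of that size 5.58% of all tested genes were higher and 1.43% lower. The values that the authors' means leave over 3 libraries kept the groups apart in 3 higher (14.3%) and 2 lower genes (9.52%). Of all tested genes, 7.68% were then higher and 3.97% lower, so this list was below that background in the listed libraries and above it here. The median log2 fold change was 0.13. The higher gene was ADAR, an adenosine deaminase that edits double-stranded RNA, with 3.66 (Control 1), 3.95 (Control 2), 9.57 (Cu 1) and 7.85 FPKM (Cu 3). Cu minus Control came to 1.01 on the log2 scale (standard error 0.36, unadjusted p = 0.0302, adjusted p = 0.656 in limma's test), and it was 0.88 without Cu 1, 0.73 after quantile normalization and 0.93 by the authors' means. The values these would leave over 3 libraries, 2.47 FPKM for Control and 4.55 FPKM for Cu, keep the groups of ADAR apart. Without Cu 3 the log2 fold change of ADAR was 1.14, with a single Cu library left in the group.

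Transcripts of the remaining steps ranged widely, with 6 of the 28 genes at 10 FPKM or more in every library and 5 under 1 FPKM in every library. The most abundant gene of each step is given here, beside the AGO proteins. RAN, the GTPase that drives nuclear transport with many cargoes beside miRNA precursors, was the most abundant of the list with 252 to 387 FPKM. PRKRA, a double-stranded RNA-binding partner of DICER1, had 6.38 to 11.9 FPKM, TNRC6A, the scaffold through which AGO proteins recruit deadenylases, 15.9 to 24.2 FPKM, and TSN, a subunit of a nuclease that clears the passenger strand, 20.1 to 38.5 FPKM. AGO1 had 1.02 to 2.23 FPKM, AGO3 0.80 to 1.88 FPKM and AGO4 at most 0.09 FPKM. The log2 fold changes were 0.14 for RAN, -0.21 for PRKRA, -0.28 for TNRC6A, 0.30 for TSN, 0.28 for AGO1 and -0.07 for AGO3, with adjusted p of 0.867 to 0.973 in limma's test. The groups of all 6 overlapped.

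**Figure D5:**
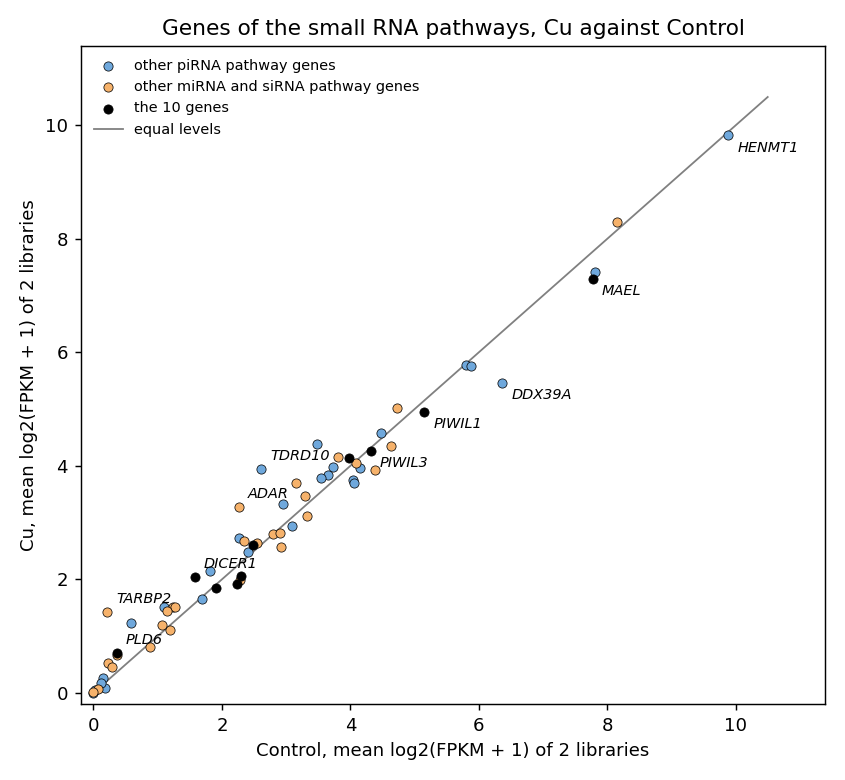
Mean log2(FPKM + 1) of the 2 Cu libraries on the vertical axis against that of the 2 Control libraries on the horizontal axis, with 1 point for each gene with values of the 10 genes and of both longer lists, and the line of equal levels. HENMT1 lies at the upper end close to the line, MAEL and DDX39A below it, and ADAR, TDRD10 and TARBP2 above it.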

How the data were processed

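RNA of porcine oocytes was measured in 4 libraries, 2 labelled Control and 2 labelled Cu, and group and replicate number were taken from the sample titles. Dose, culture time and oocytes per library are those of the study's methods. The authors deposited FPKM rounded to 2 decimals, for 16050 of 30684 rows, all of type mRNA. Their paper names SOAPnuke, HISAT2, Bowtie2 and RSEM, while the submitters' processing notes name TopHat2 2.0.13, Cufflinks 2.2.1, Cuffnorm and Cuffdiff, so which tools made the table is not settled. The notes give the build as Sscrofa11.1. Gene coordinates are those of the RefSeq table of that assembly, in which all 16050 identifiers were found. Group means by the authors are listed too. They differed by more than 0.006 from the mean of the listed libraries in 13997 genes for Control and 14324 for Cu. The results give these means, log2 differences between them and the values they would leave for the remaining libraries. None of these entered limma's test. The smallest value above 0 is 0.01, the rounding limit, so reads could not be recovered, the depth of each library is unknown and no interval that needs it is given.

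Genes were kept where 2 or more libraries had at least 1 FPKM, and values were set to log2(FPKM + 1). Cu was set against Control with limma 3.58.1, run in R 4.3.3 (eBayes with a variance trend, two-sided), with Benjamini-Hochberg adjustment over all 8541 tested genes. The procedure was tested on simulated data, with variances drawn around the fitted trend. It recovered most of the large changes simulated (4 on the log2 scale) but none of the moderate ones (2 on that scale). The log2 fold changes of the 9 tested genes, from -0.48 to 0.46, were smaller than both. With variances shuffled over genes, the version tried first, it missed the limit set for large changes. A gene that does not pass is thus no sign of an equal level. The pseudocount of 1 understates the fold changes of weakly expressed genes. The genes, lists and tests were chosen with earlier results of these data known. Named beside the 10 genes are those of the longer lists with groups apart by a log2 fold change of at least 1, those with an unadjusted p of 0.05 or less, the most abundant of each role, and PIWIL4, AGO1, AGO3 and AGO4. Other genes of the lists that are named were chosen after their values were seen. Alternatives were another pseudocount (0.1), other filters, quantile normalization, median-of-ratios scaling, no variance trend, the authors' means and leaving out each library. The difference from the median of all tested genes and the values that the authors' means leave for the remaining libraries were added after seeing the data. Directions rest on the sample labels alone, which are in doubt.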

Additional observations from a re-analysis of the deposited data

How the results depend on the processing

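Of 108 recomputed fold changes of the 9 tested genes, 93 kept their direction and 15 did not, and in none did a gene pass an adjusted p of 0.05. MAEL, DDX4 and DICER1 kept their direction under every alternative run. The median of all tested genes moved from 0.16 to -0.07 with quantile normalization and to -0.04 with median-of-ratios scaling. With these 2 scalings, and relative to that median, TDRKH was at -0.041, -0.077 and -0.009 and ASZ1 at -0.144, -0.073 and -0.026. The groups of 5 genes (PIWIL2, MAEL, DDX4, ASZ1 and AGO2, all lower in Cu) and of 4 genes (PIWIL2, PIWIL3 and MAEL lower, DICER1 higher) then did not overlap, compared with 39.4% and 39.0% of all tested genes, and 0 genes of the longer miRNA and siRNA list had an unadjusted p of 0.05 or less. AGO1 was at -0.017 with quantile normalization, and RAN at -0.11 with median-of-ratios scaling and -0.024 relative to the median. With the values that the authors' means leave for the remaining libraries, the groups of 0 of the 9 genes did not overlap, so the separation of MAEL and DICER1 rests on the listed libraries. By the authors' means the log2 difference was -0.12 for MAEL, 0.165 for DICER1 and 0.19 for AGO2.

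Leaving out each library left 1 library in a group, which is assumed to vary like the other group. Without Cu 3 and without Cu 1, 1755 and 186 genes of the whole table passed an adjusted p of 0.05, and 0 without either Control library, and 127 to 2958 genes had an unadjusted p of 0.05 or less. The 10 genes gave 0 adjusted calls and 0 to 1 unadjusted, the longer piRNA list 0 to 2 and 0 to 5, and the longer miRNA and siRNA list 0 to 1 and 0 to 2. The adjusted calls were TDRD10 (2.45), PRMT5 (1.21) and ADAR (1.14) without Cu 3 and MYBL1 (1.84) without Cu 1. The groups of 3 to 8 of the 9 genes did not overlap, where 58.7% to 83.5% of all tested genes did not. The log2 fold changes ranged from -0.70 to 0.31 for PIWIL1, -0.50 to 0.025 for PIWIL2, -0.34 to 0.23 for PIWIL3, -0.30 to 0.60 for TDRKH, -0.14 to 0.41 for ASZ1 and -0.42 to 0.32 for AGO2. Among the longer lists they were -0.18 to 0.14 for RNF17, -0.38 to 0.26 for HENMT1, -0.70 to 1.21 for PRMT5, -0.41 to 0.27 for AGO3, -0.17 to 0.45 for RAN, -0.58 to 0.16 for PRKRA and -0.023 to 0.62 for TSN. For these the cause was not tested. No paired analysis was possible because the groups share only 1 replicate number.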

Other observations

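In some genes of the longer lists, chosen after their values were seen, 1 library stood far above the other 3. TDRD10, a Tudor protein, had 32.4 FPKM in Cu 1 and 4.24 to 6.10 FPKM elsewhere, and TARBP2, an RNA-binding partner of DICER1, had 4.67 FPKM in Cu 1 and 0.07 to 0.28 FPKM elsewhere. MYBL1, a transcription factor known to drive piRNA precursors in the testis, had 38.8 FPKM in Cu 3 and 8.70 to 11.7 FPKM elsewhere. The Cu means of these genes over the listed libraries therefore rest largely on a single library. The authors' means for Control and Cu were 5.19 and 17.8 FPKM for TDRD10 and 0.137 and 1.75 FPKM for TARBP2. For MYBL1 they were 11.5 and 20.2 FPKM. If taken over 3 libraries, those of TDRD10, TARBP2 and MYBL1 would each leave the remaining Cu library above the listed Control libraries. For TARBP2 and MYBL1 this would be by a small margin. For MYBL1 the remaining Control library would lie above the remaining Cu library.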
